A study of Mus musculus with 4 samples.

Results

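The thymocyte and T cell genes are 32 of the 23366 gene symbols counted in mouse medullary thymic epithelial cells (mTECs). They were chosen by function: 4 subunits of the T cell receptor complex, 9 signalling proteins, 3 coreceptor chains, 7 other surface receptors, 5 lineage factors and 4 genes of receptor gene recombination and the pre-T cell receptor. RNA was sequenced from mTECs of C57BL/6 wild-type mice aged 6-8 weeks, in 2 pools per sex of 10 mice each, and no pool had a treatment or an altered allele. The cells were sorted as living (PI-), CD45-, MHCII+ and Ly51low. The labels do not say whether the pools were sorted on separate days or how the pool numbers 1 and 2 were given.

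Thymocytes are the developing T cells that fill the thymus around the epithelium. They first rearrange their receptor genes with the Rag1 and Rag2 recombinase, pair the new β chain with the pre-T cell receptor α chain (Ptcra), and then display a complete receptor whose signal is carried by the CD3 and CD247 chains, Lck and Zap70. Cells that pass positive selection gain surface CD5, CD6, CD27 and CD28, lose the recombinase and move to the medulla, where mTECs show them self antigens. Thymocytes carry CD45, the product of Ptprc, which the sort was set to leave out.

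The pools held 3508921 and 1976272 reads assigned to genes in female pools 1 and 2, and 7103627 and 3344471 in male pools 1 and 2. Levels below are CPM, counts scaled to the gene reads of a pool, with TMM scaling, and levels compared between genes are also divided by exon length (RPKM). Male pool 1, the deepest library, stood apart for these genes, so results are given with and without it. Epithelial markers were read in every pool: the summed CPM of 9 of them, led by Spint2, Krt8 and Krt18, was 380 and 669 in the females and 421 and 636 in the males, and Aire was at 19.2 to 31.5 CPM. Markers of blood cells were read as well, with 7 B cell genes (led by Cd79a, Cd79b and Ms4a1) summing to 2150.3 to 3742 CPM and Ptprc at 179 to 303 CPM. In bulk pools fewer cells of a type and less RNA per cell cannot be told apart, and the counts do not name the cell that an RNA came from.

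All 32 genes were read, 30 of them in every pool, and 28 were highest in male pool 1. The summed counts of the 32 genes were 3859 and 1465 in the first and second pools of females, and 20738 and 2019 in those of males. As a share of gene reads female pool 1 held 0.110% (95% Wilson interval 0.107 to 0.114) and female pool 2 held 0.0741% (0.0704 to 0.0780). Male pool 1 held 0.292% (0.288 to 0.296) and male pool 2 held 0.0604% (0.0578 to 0.0631). These intervals, like the others given for counts, cover counting error only. Male pool 1 held the largest share of the 4, and the sexes overlapped. With TMM scaling the 32 genes summed to 1044 and 721 CPM in the females and to 2466 and 774 CPM in the males, so male pool 2, the smallest by share of gene reads, was then above female pool 2.

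Among the 13583 genes with at least 10 counts over the pools, 25.1% were highest in male pool 1, against 28 of the 32 thymocyte genes. The level in male pool 1 divided by the mean of the other 3 pools had a median of 5.85 over the 32 genes and ran from 0.850 (Cd4) to 29.5 (Themis), beside a median of 0.981 over the 13583 genes. This ratio was over 2-fold for 26 of the 32 genes and for 540 genes of the table (3.98%). The other 4 genes, Cd4, Cd8a, Thy1 and Ptcra, were highest in male pool 2.

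**Figure D1:**
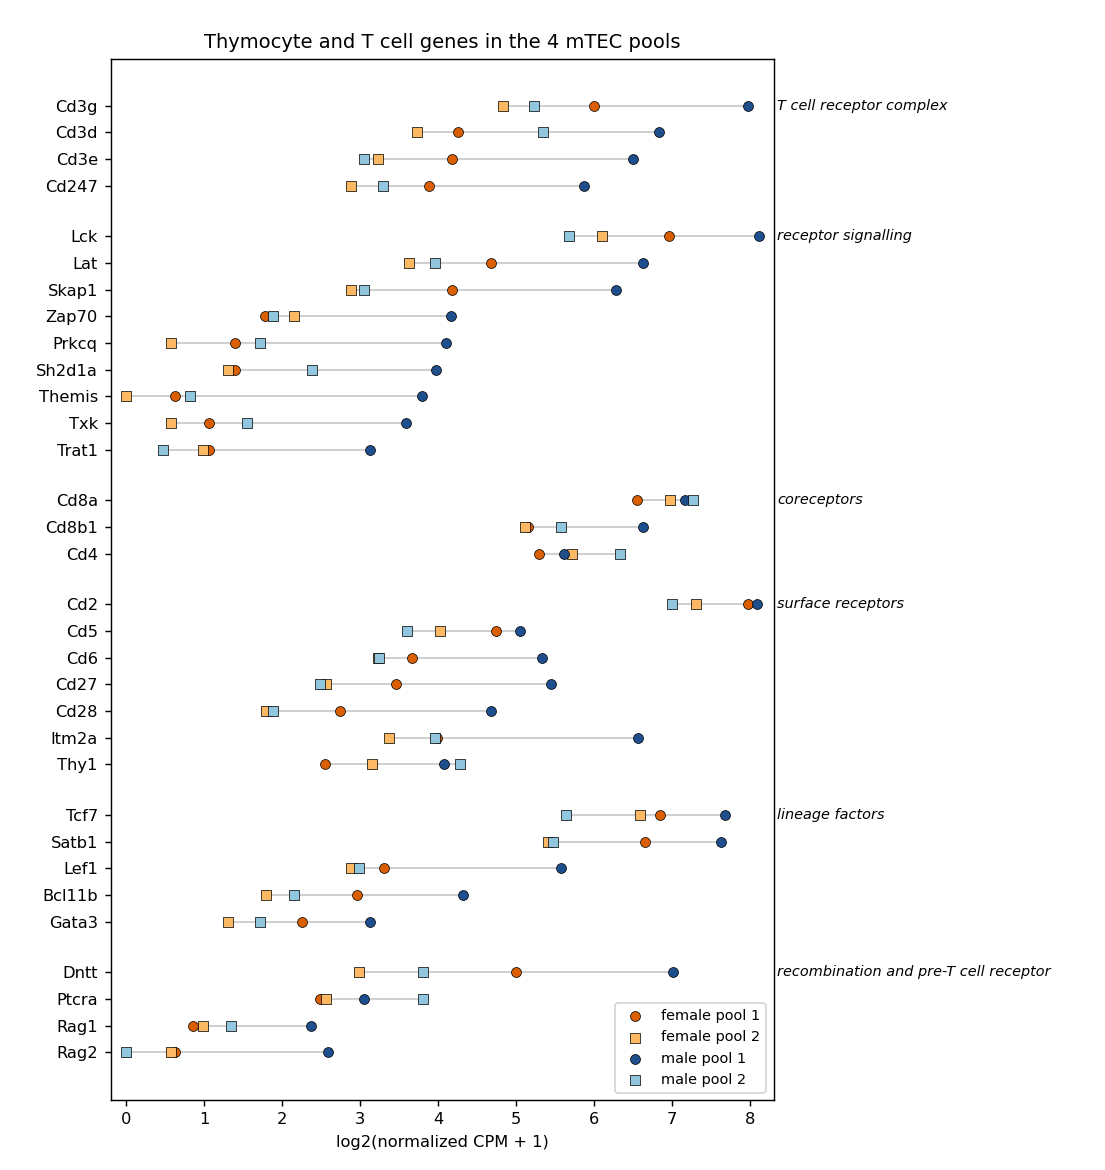
Level of each of the 32 genes in the 4 pools, as log2(normalized CPM + 1) on the horizontal axis, with genes grouped by role on the vertical axis. Each point is 1 pool and the grey line spans the 4 pools; 28 genes are highest in male pool 1 (dark blue circles).

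The T cell receptor complex genes code for the chains that carry the receptor's signal into the cell. Cd3g, Cd3d and Cd3e lie side by side on chromosome 9 (NCBIM37), with 1361 bases between Cd3g and Cd3d and 11690 between Cd3d and Cd3e, and Cd247, the zeta chain gene, lies on chromosome 1. Cd3g spans 44777655 to 44788514 on the minus strand, Cd3d 44789876 to 44795135 on the plus strand and Cd3e 44806826 to 44817673 on the minus strand, and reads were counted over their exons. Cd3g was at 62.8 and 27.6 CPM in female pools 1 and 2 and at 250 and 36.4 CPM in male pools 1 and 2. Cd3d was at 18.1 and 12.3 CPM in the females and at 113 and 39.5 CPM in the males. All of these chains were highest in male pool 1, but Cd3d was also higher in male pool 2 than in either female pool.

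Cd3e was at 17.0 and 8.37 CPM in the females and at 89.5 and 7.28 CPM in the males. Cd247 was at 13.8 and 6.40 CPM in the females and at 57.4 and 8.81 CPM in the males. For both, male pool 2 lay within or below the range of the females. Male pool 1 exceeded the mean of the other pools 4.85-fold for Cd3d, 5.92-fold for Cd3g, 5.94-fold for Cd247 and 8.22-fold for Cd3e.

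The CD3 genes did not keep 1 ratio across pools. Per exon length, Cd3d over Cd3e was 1.15 (95% exact binomial interval 0.806 to 1.65) and 1.60 (0.828 to 3.15) in the females, pool 1 first, and 1.37 (1.24 to 1.51) and 5.88 (3.58 to 10.2) in the males. The interval of male pool 2 lay above those of the other pools, on 103 counts of Cd3d and 19 of Cd3e there. Cd3g over Cd3d was 4.28 (3.25 to 5.71), 2.77 (1.70 to 4.63), 2.74 (2.53 to 2.96) and 1.14 (0.854 to 1.52) in the same order of pools. Cd3g over Cd3e varied less, at 4.94 (3.73 to 6.64) and 4.42 (2.53 to 8.12) in the females. In the males it was 3.75 (3.45 to 4.08) and 6.71 (4.07 to 11.6), with intervals that only just overlapped. In male pool 2 it was Cd3d that departed most from its neighbours, with 19 counts of Cd3e there. By RPKM, Cd3g ranked 1 of the 32 genes in male pool 1 (234) and from 2 to 4 in the other pools (58.7, 25.8 and 34.0).

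The 250 bases before the start of each CD3 gene are shown because these 3 neighbours were high together in male pool 1. In male pool 2, Cd3d alone of them was above both female pools. The sequences are from RefSeq, build GRCm38.p6, on the coding strand, and run 5′ to 3′ up to the start: Cd3g at chr9:44980432-44980681 (minus strand), Cd3d at chr9:44981536-44981785 (plus strand) and Cd3e at chr9:45009612-45009861 (minus strand). Capitals mark CACCTG, the E protein motif, and CTTCCTG, an ETS motif read on the other strand.
Cd3g: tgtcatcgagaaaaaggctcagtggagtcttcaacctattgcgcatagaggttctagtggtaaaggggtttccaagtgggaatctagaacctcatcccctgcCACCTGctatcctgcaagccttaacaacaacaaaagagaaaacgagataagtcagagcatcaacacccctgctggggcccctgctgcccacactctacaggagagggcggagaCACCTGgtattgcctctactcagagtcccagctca
Cd3d: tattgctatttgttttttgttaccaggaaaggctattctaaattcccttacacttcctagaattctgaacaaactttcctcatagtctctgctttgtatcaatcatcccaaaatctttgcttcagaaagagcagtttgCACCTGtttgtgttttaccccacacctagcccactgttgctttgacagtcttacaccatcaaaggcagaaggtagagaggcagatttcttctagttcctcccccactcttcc
Cd3e: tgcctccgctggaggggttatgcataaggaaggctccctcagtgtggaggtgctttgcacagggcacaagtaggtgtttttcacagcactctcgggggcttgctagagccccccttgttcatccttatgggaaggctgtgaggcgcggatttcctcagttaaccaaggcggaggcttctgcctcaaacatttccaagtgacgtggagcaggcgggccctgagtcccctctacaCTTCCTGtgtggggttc
CACCTG begins 148 and 35 bases before the start of Cd3g and 112 bases before that of Cd3d, and CTTCCTG begins 17 bases before that of Cd3e. None of these 4 matches overlaps another.

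RefSeq windows were matched for 24 of the 32 genes, with 37 windows in all because some genes have several starts. Skap1, Sh2d1a, Cd2, Cd4, Cd6, Cd8b1, Cd28 and Thy1 had no window. Counting both strands, CACCTG or CAGGTG stood in 10 of the 37 windows (27.0%) and in 17.2% of 32851 windows of the same length over all genes. The ETS letters CAGGAAG or CTTCCTG stood in 10 of 37 (27.0%) and in 10.8% of all windows. The TCF and LEF letters CTTTGA or TCAAAG stood in 6 windows (16.2%, against 13.8%), the RUNX letters TGTGGT or ACCACA in 5 (13.5%, against 14.0%), and the GATA letters AGATAA or TTATCT in 4 (10.8%, against 9.99%). A match to these short letters is a description of the sequence and does not show that a factor binds there.

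The 9 signalling genes were all highest in male pool 1, with a median of 7.49 for male pool 1 over the mean of the other pools. Lck, the kinase that phosphorylates the CD3 chains, was the most abundant per length, at 42.0 and 23.0 RPKM in the females and 94.5 and 17.1 RPKM in the males. In CPM it was at 123 and 67.5 in the females and at 277 and 50.2 in the males, so the male pools lay on either side of both female pools. Lat, the membrane adaptor that gathers signalling proteins, was at 24.6 and 11.3 CPM in the females and at 97.5 and 14.6 CPM in the males. The males thus held both the highest Lat level and one between the female pools.

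Skap1, an adaptor that links the receptor to integrin adhesion, was at 17.0 and 6.40 CPM in the females and at 76.7 and 7.28 CPM in the males. Zap70, the kinase recruited to phosphorylated CD3 and zeta chains, was at 2.43 and 3.45 CPM in the females and at 17.0 and 2.68 CPM in the males. For both, male pool 1 was the highest pool and male pool 2 lay between the female pools. Sh2d1a, the adaptor SAP of the SLAM receptors, was at 1.62 and 1.48 CPM in the females and at 14.7 and 4.21 CPM in the males. Here both male pools were above both female pools, on 6, 3, 124 and 11 counts.

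The other 4 signalling genes had few counts outside male pool 1. Themis, which tunes receptor signalling during positive selection, had 2 and 0 counts in the females, pool 1 first, and 108 and 2 in the males. Against the other pools summed, its level in male pool 1 was 26.8-fold (95% exact interval 10.2 to 100). The 0 in female pool 2 allows a level of up to 1.48 CPM (3 counts). Prkcq, the kinase PKC-θ, had 6, 1, 136 and 6 counts in the same order, a ratio of 10.4 (5.87 to 20.0), and Txk, a kinase of the Tec family, had 4, 1, 93 and 5 counts, a ratio of 9.22 (4.80 to 19.9). Trat1, an adaptor bound to the receptor complex, had 4, 2, 65 and 1 counts, a ratio of 9.21 (4.22 to 23.8). These 4 low genes kept intervals above 4-fold in male pool 1.

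The coreceptors differed from the receptor complex. Cd4, the coreceptor for MHC class II, was at 38.1 and 51.7 CPM in the females and at 47.9 and 79.3 CPM in the males, and male pool 1 was at 0.850 times the mean of the other pools. Cd8a, the α chain of the coreceptor for MHC class I, was at 92.5 and 124 CPM in the females and at 143 and 152 CPM in the males. Cd8b1, the β chain, was at 34.6 and 33.5 CPM in the females and at 98.2 and 46.7 CPM in the males. Only Cd8b1 of these 3 was highest in male pool 1, at 2.57 times the mean of the other pools, against 1.16 for Cd8a.

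Cd8b1 (71272830 to 71287471) and Cd8a (71323421 to 71329165) lie 35949 bases apart on chromosome 6 (NCBIM37) and form 1 heterodimer on thymocytes, while some dendritic cells carry CD8α without CD8β. Cd8a over Cd8b1, per exon length, was 1.21 (0.985 to 1.49) and 1.68 (1.28 to 2.23) in the females, and 0.660 (0.604 to 0.722) and 1.48 (1.20 to 1.83) in the males. Male pool 1 was the one pool with more Cd8b1 than Cd8a, and its interval lay below the others. The 9 markers of dendritic cells and macrophages, led by Lyz2, Flt3 and Cd68, summed to 1997 and 3426 CPM in the females and 1477 and 4556 CPM in the males. None of the 9 was highest in male pool 1, and their part in the Cd8a and Cd4 levels was not tested.

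Some genes were listed as also known in other blood cells. These lists were made with earlier results of these data known, so the values below are a description and no test. The 3 genes listed for dendritic cells (Cd4, Cd8a and Cd2) had ratios of 0.850 to 1.52 for male pool 1 over the mean of the others. The 6 listed as known in B cells (Cd5, Cd2, Cd27, Rag1, Rag2 and Dntt) had a median of 5.15, and the 24 genes in neither group had a median of 5.93. Those 24 include Ptcra (0.965), which was not listed but is known in plasmacytoid dendritic cells. B cell markers were not highest in male pool 1 for any of the 7 genes.

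Among the surface receptors, Cd2, an adhesion receptor, had the highest mean RPKM of the 32 genes. It was at 251 and 157 CPM in the females and at 270 and 126 CPM in the males, so the pools numbered 1 were both above the pools numbered 2. Cd5, which dampens receptor signalling and marks selected cells, was at 25.7 and 15.3 CPM in the females and at 32.2 and 11.1 CPM in the males. Both genes spread within a sex more than between the sexes.

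Itm2a, a membrane protein that appears with positive selection, was at 14.9 and 9.36 CPM in the females and at 93.2 and 14.6 CPM in the males. The costimulatory receptor Cd27 was at 10.0 and 4.92 CPM in the females and at 42.7 and 4.60 CPM in the males. Cd28, the receptor for CD80 and CD86, was at 5.68 and 2.46 CPM in the females and at 24.5 and 2.68 CPM in the males. All 3 were at least 6.56-fold above the mean of the other pools in male pool 1. Cd6, an adhesion receptor that lies 50366 bases from Cd5 on chromosome 19, was at 11.6 and 8.37 CPM in the females and at 39.2 and 8.43 CPM in the males.

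Thy1 (chromosome 9, 43851467 to 43856662, NCBIM37) had a different pattern. This glycoprotein of thymocytes, also found on other cells, was at 4.87 and 7.88 CPM in the females and at 15.9 and 18.4 CPM in the males, on 18, 16, 134 and 48 counts. Both male pools were above both female pools and near each other. The 5 fibroblast markers, led by Dcn, Col1a2 and Col1a1, summed to 10.8 and 37.9 CPM in the females and to 58.1 and 72.4 CPM in the males. Dcn was at 8.66 and 34.0 CPM in the females and at 45.7 and 65.1 CPM in the males. In the same order of pools, Col1a2 had 1, 3, 45 and 8 counts, Col1a1 had 3, 5, 18 and 11, and Lum had 4, 0, 40 and 0. Pdgfra was at 0 in 3 pools and had 2 counts in male pool 1. The part of fibroblast RNA in the Thy1 level was not tested.

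The 5 lineage factors were all highest in male pool 1, with a median of 3.22 over the mean of the other pools. Tcf7, a factor of T cell commitment, was at 114 and 95.1 CPM in the females and at 203 and 49.0 CPM in the males. Lef1, its close relative, was at 8.93 and 6.40 CPM in the females and at 46.6 and 6.90 CPM in the males. Tcf7 in male pool 1 was thus 2.36 times, and Lef1 6.29 times, the mean of the other pools.

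Satb1, a chromatin organizer of thymocytes, was at 99.3 and 41.4 CPM in the females and at 197 and 43.3 CPM in the males. Bcl11b, needed for T cell commitment, was at 6.76 and 2.46 CPM in the females and at 19.0 and 3.45 CPM in the males. Gata3, a factor of the CD4 lineage, was at 3.79 and 1.48 CPM in the females and at 7.73 and 2.30 CPM in the males. For each of these, the pool numbered 1 was above the pool numbered 2 in both sexes.

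Of the recombination genes, Dntt was by far the most read. Dntt (chromosome 19, 41103765 to 41134013, NCBIM37) is the enzyme that adds untemplated bases at receptor gene joints, and it was at 31.1 and 6.89 CPM in the females and at 128 and 13.0 CPM in the males, 7.51 times the mean of the other pools in male pool 1. Rag1 had 3, 2, 35 and 4 counts in female pools 1 and 2 and male pools 1 and 2, a ratio of 3.86 (1.82 to 9.12) for male pool 1. Rag2, which lies 5753 bases from Rag1 on chromosome 2, had 2, 1, 42 and 0 counts, a ratio of 13.9 (4.44 to 70.0). The 0 in male pool 2 allows up to 1.15 CPM.

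Ptcra, the pre-T cell receptor α chain, was at 4.60 and 4.92 CPM in the females and at 7.25 and 13.0 CPM in the males. Its level did not follow Dntt. Dntt over Ptcra, per exon length, was 1.91 (1.14 to 3.39), 0.395 (0.163 to 0.993), 4.97 (3.84 to 6.54) and 0.282 (0.170 to 0.468) in the same order of pools, higher in both pools numbered 1. Ptcra is known in plasmacytoid dendritic cells as well. The 6 markers of those cells, led by Bst2, Tcf4 and Spib, summed to 803 and 754 CPM in the females and to 684 and 958 CPM in the males. Of the 6, only Bst2, which is also an interferon-induced gene, was highest in male pool 2, and 4 were lowest there. Without Bst2 the other 5 summed to 497 and 368 CPM in the females and to 434 and 319.9 CPM in the males. Setting Bst2 apart was not planned beforehand. The part of plasmacytoid dendritic cells in the Ptcra level was not tested.

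Immature and mature stage genes were then compared within each pool, where the ratio does not depend on scaling. The immature stage was taken as Rag1, Rag2, Dntt and Ptcra, and the mature stage as Cd5, Cd6, Cd27, Cd28, Trat1 and Itm2a. Female pool 1 held 137 immature and 255 mature counts, and female pool 2 held 27 and 84. Male pool 1 held 1213 and 2015, and male pool 2 held 72 and 109. The ratio of immature to mature counts was 0.537 (95% Wilson interval 0.437 to 0.661) and 0.321 (0.209 to 0.494) in the females, pool 1 first, and 0.602 (0.561 to 0.646) and 0.661 (0.491 to 0.889) in the males. Mature stage genes had more counts in every pool, and the interval of male pool 1 overlapped those of female pool 1 and male pool 2 and lay above that of female pool 2.

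Both stages were high together in male pool 1. The median of male pool 1 over the mean of the others was 5.63 for the 4 immature genes (0.965 to 14.5) and 6.67 for the 6 mature genes (1.86 to 9.46). The comparison of stages rested on Dntt, which made up 83.9% and 51.9% of immature counts in females and 88.6% and 47.2% in males. Without Dntt the ratio was 0.0863 and 0.155 in the females and 0.0685 and 0.349 in the males. With RPKM summed in place of counts it was 0.755 and 0.653 in the females and 0.707 and 1.50 in the males. Male pool 2 then had more immature than mature signal, with Ptcra, at 21.7 RPKM, its largest immature gene.

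Of the further genes of these stages, Arpp21 had 10, 0, 98 and 2 counts and Aqp11 had 7, 0, 71 and 5 counts in female pools 1 and 2 and male pools 1 and 2. All 6 of the further immature genes were highest in male pool 1, with a median ratio of 2.32. The most abundant of them, Ccr9, Cd1d1 and Mns1, had ratios of 1.84, 1.33 and 1.61. Of the 8 further mature genes 3 were highest there, with a median ratio of 1.27, and the most abundant were Ccr7, Klf2 and Cd69. Of the 13583 genes, 25.1% were highest in male pool 1. Genes of both lists are expressed by other blood cells as well. Among the further mature genes, Ms4a4b had 23, 1, 193 and 7 counts. Arpp21, Aqp11 and Ms4a4b were picked for display after their values were seen. Of the 4 tested further immature genes and the 8 tested further mature genes, 0 passed the test between the sexes described below.

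Most of these genes were lower in the pools numbered 2 than in the pools numbered 1. In females 26 of the 32 genes were lower in pool 2 than in pool 1, and in males 28 were. In both sexes at once it was 26 of the 32, while 31.9% of the 13583 genes were lower in pool 2 of both sexes. The median of pool 2 over pool 1 was 0.610 in females and 0.177 in males for the 32 genes, and 1.001 and 0.995 for the 13583 genes. The 6 exceptions were Cd4, Cd8a, Thy1, Ptcra, Zap70 and Rag1. With 1 pool per number and sex, this is a description with no test, and nothing in the labels says what the number marks.

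**Figure D2:**
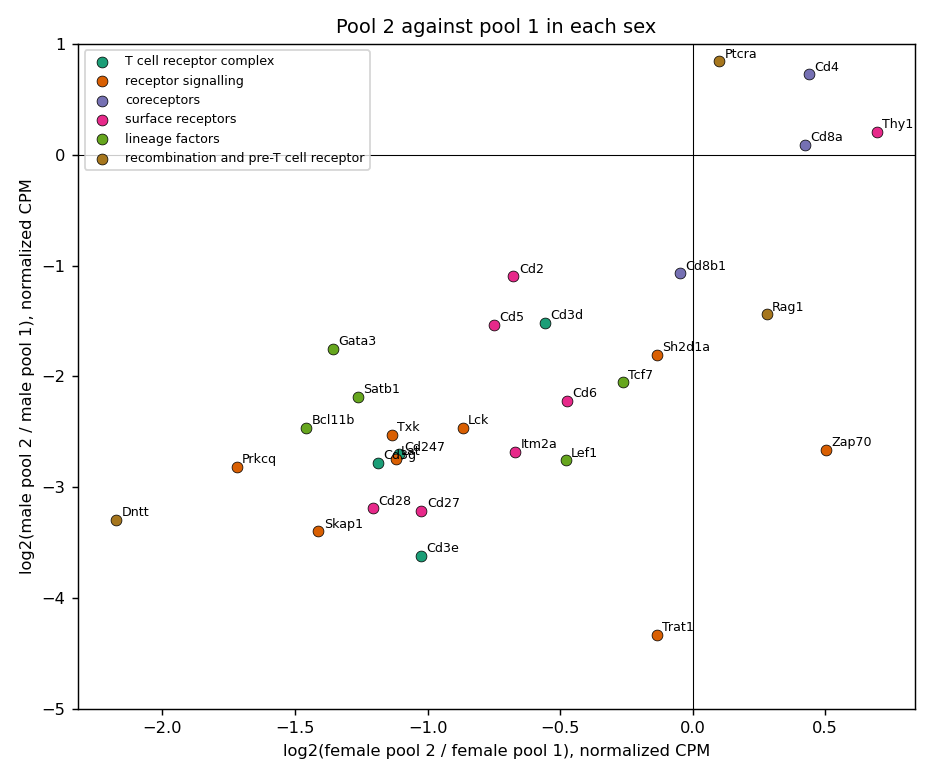
Each point is 1 of the 30 genes with a count in all pools, placed by log2 of pool 2 over pool 1 in females (horizontal) and in males (vertical), from normalized CPM and coloured by role. Most lie in the lower left, lower in pool 2 of both sexes; Cd4, Cd8a, Thy1 and Ptcra lie in the upper right.

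Some cell type lists differed between the pool numbers as well. B cell markers summed to 3742 and 2396 CPM in the females and to 2994 and 2150.3 CPM in the males, with 6 of 7 lower in pool 2 of both sexes. The 6 natural killer cell markers, led by Il2rb, Klrd1 and Nkg7, summed to 78.2 and 29.5 CPM in the females and to 136 and 48.7 CPM in the males, with 5 of 6 highest in male pool 1. The defining genes Ncr1 and Klrb1c were at 0 in 3 pools and had 3 and 17 counts in male pool 1. Of the 32 thymocyte genes, 13 are known in natural killer cells too, among them Cd247, Zap70, Sh2d1a and Thy1. Of the epithelial markers, 0 of 9 were highest in male pool 1 and 0 of 9 were lower in pool 2 of both sexes. Of the 13583 genes, these shares were 25.1% and 31.9%. The part of these lists in the thymocyte gene levels was not tested.

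**Figure D3:**
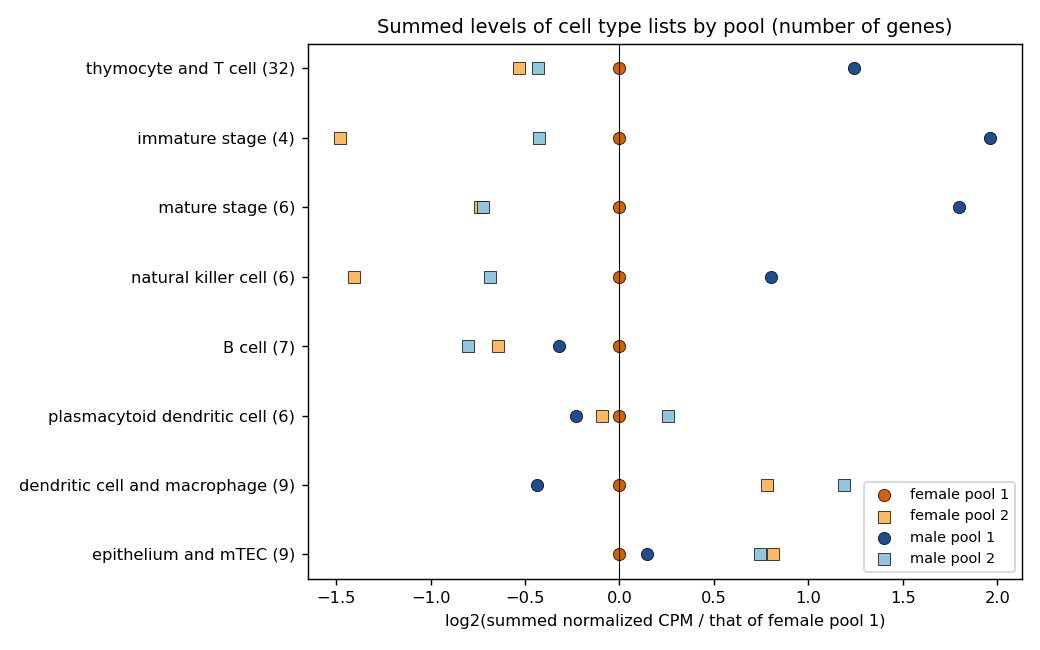
Summed normalized CPM of each list in each pool, divided by that of female pool 1 and shown as log2 on the horizontal axis, with the number of genes in each list in brackets. The thymocyte, stage and natural killer lists are highest in male pool 1 (dark blue circles), while the epithelial list and that of conventional dendritic cells and macrophages are higher in pool 2 (squares) than in pool 1 of each sex.

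Males and females were compared with edgeR's quasi-likelihood test over all genes, the comparison for which the study sequenced these pools. No thymocyte gene passed the adjusted threshold in the fit with sex as the only term, low counts filtered and all 4 pools. Of the 32 genes 26 had enough counts to be tested, and the 6 left out were Txk, Prkcq, Themis, Trat1, Rag1 and Rag2. At an adjusted p under 0.05, 0 of the 26 were called, and 0 of all 10865 genes tested (0%). From these pools the paper lists genes raised in males at a false discovery rate under 0.05, some of them on the Y chromosome. The fit used here called none of those, so its 0 does not show that the sexes are alike. At an unadjusted p under 0.05, 5 of the 26 passed, against 48 of 10865 (0.442%). DESeq2 and edgeR's exact test also called 0 of the 26 after adjustment, against 3 and 8 of all 10865 genes tested. Settings that did call some thymocyte genes are given below.

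The 5 genes were Cd3d, Sh2d1a, Thy1, Itm2a and Cd8b1. The mean level of Cd3d was 15.2 ± 4.11 CPM in females and 76.2 ± 52.0 CPM in males (SD, n = 2), a log2 fold change of 2.32 (SE 0.55, edgeR unadjusted p = 0.00449, adjusted p = 0.99997). Thy1 had 6.37 ± 2.13 CPM in females and 17.2 ± 1.74 CPM in males (SD, n = 2), a log2 fold change of 1.45 (SE 0.43, edgeR unadjusted p = 0.0119, adjusted p = 0.99997). The male pools lay close together for Thy1 and far apart for Cd3d. Log2 fold changes were 2.64 for Sh2d1a, 2.15 for Itm2a and 1.10 for Cd8b1 (edgeR unadjusted p = 0.0109, 0.0332 and 0.0360).

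The log2 fold change was above 0 for 25 of the 26 tested genes, Cd2 being the exception at -0.04, and for 53.2% of all tested genes. Its median was 1.54 over the 26 genes and 0.03 over all. Both male pools were above both female pools for 10 of the 32 genes (Cd8a, Cd8b1, Cd3d, Ptcra, Thy1, Sh2d1a, Txk, Prkcq, Themis and Rag1), against 11.6% of the 13583 genes. Of Themis, Prkcq, Txk and Rag1, male pool 2 had 2, 6, 5 and 4 counts and female pool 1 had 2, 6, 4 and 3. Such counts are too few to order these pools. The direction of most genes rested on male pool 1. Without it, 18 of the 26 were lower in males, the median was -0.33, and the median of all genes was -0.05.

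Without male pool 1, the fit called 2 of the 26 genes, Cd3d and Thy1, both higher in the male pool that was left, while 5.3% of all genes tested were called higher. With 1 male pool the test assumes that it varies like the female pools. For Cd3d the log2 fold change was then 1.33, and its adjusted p under the 11 alternatives of the edgeR fit, DESeq2 included, ran from 3.77e-11 to 1.0. For Thy1 it was 1.56, and its adjusted p under the same alternatives ran from 0.0435 to 1.0.

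Without male pool 2, 21 of the 32 genes were called, all higher in male pool 1, against 0.525% of all genes, and the median log2 fold change was 2.44. These 21 were 35.0% of the 60 genes called higher. The thymocyte genes not called were Cd2, Cd4, Cd5, Cd8a, Thy1, Tcf7, Gata3, Trat1, Rag1, Rag2 and Ptcra. With male pool 1 as the only male pool, the filter passed all 32 genes, against 26 with all 4 pools. Among the genes so added, Txk, Prkcq and Themis had 93, 136 and 108 counts in male pool 1. They had 4, 6 and 2 in female pool 1 and 1, 1 and 0 in female pool 2. Txk, Prkcq and Themis thus passed the filter only through male pool 1. Their being called higher there was nearly fixed by the filter and is no support. This test too assumes that the 1 male pool varies like the female pools, so its calls describe male pool 1 and not the sexes. With no filter on low counts, the fit with all pools called 9 of the 32 genes (Cd3d, Cd3e, Txk, Skap1, Prkcq, Themis, Sh2d1a, Itm2a and Dntt), all higher in males, against 0.134% of all genes. These were 9 of the 24 genes called higher (37.5%). For 4 of the 9, Cd3e, Skap1, Itm2a and Dntt, the level in male pool 2 was below that of female pool 1.

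**Figure D4:**
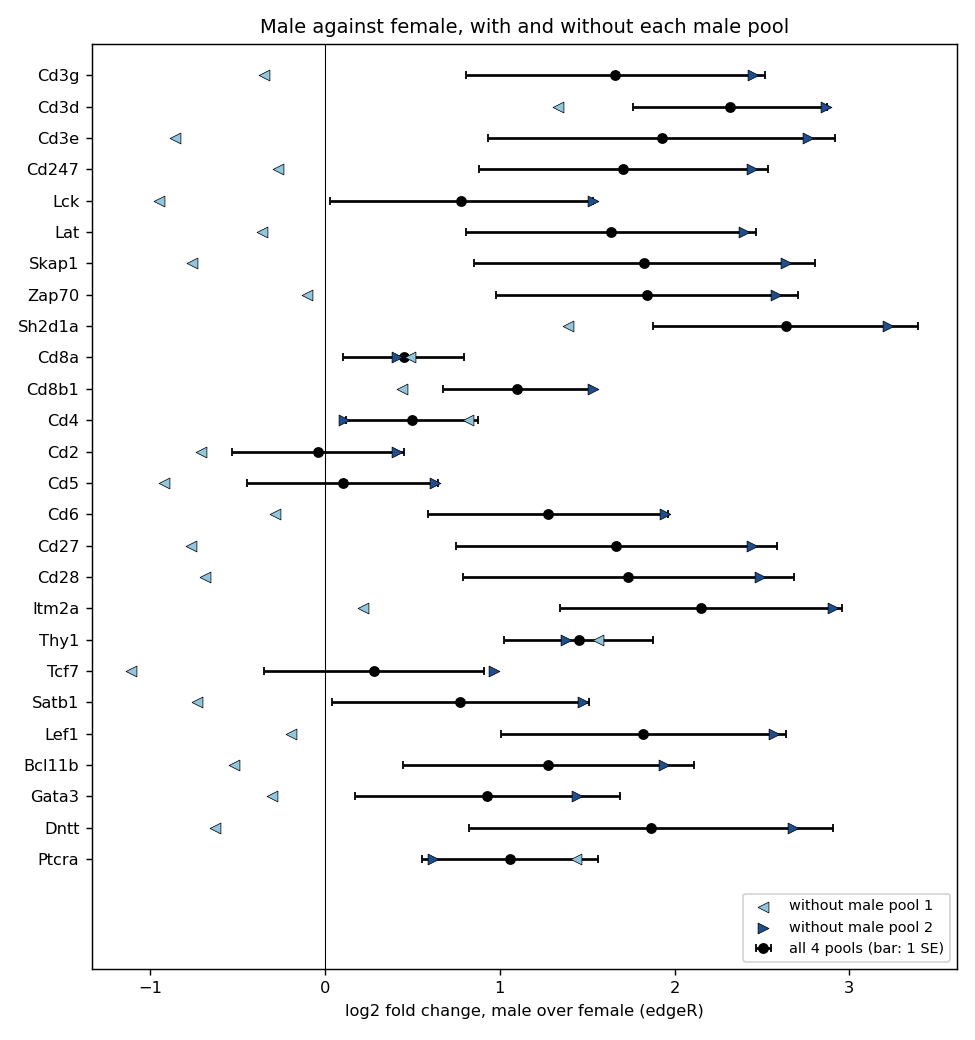
Log2 fold change of male over female for the 26 tested genes from edgeR, with all 4 pools (black, bar 1 SE), without male pool 1 (light triangles) and without male pool 2 (dark triangles). Without male pool 1, 18 of the 26 lie below 0; Cd3d, Sh2d1a, Thy1, Cd8a, Cd8b1, Cd4, Itm2a and Ptcra stay above 0.

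A further 27 genes of T cell receptor signalling include many that B cells and other blood cells use. Of these, 14 were highest in male pool 1 and 18 were lower in pool 2 of both sexes, against 25.1% and 31.9% of the 13583 genes. The median of male pool 1 over the mean of the others was 1.34. The most abundant were Ptprc, Nfatc1 and Vav1. All 27 were tested between the sexes: 0 passed after adjustment, and 1 (the costimulator Icos) at an unadjusted p under 0.05, against 0.442% of all tested genes. A log2 fold change above 0 was found for 15 of the 27, near the 53.2% of all tested genes, and the median was 0.04. Ubash3a, a T cell phosphatase, had 14, 5, 181 and 9 counts in female pools 1 and 2 and male pools 1 and 2. Icos and Ubash3a were named after their values were seen. Of 8 symbols looked up for the receptor chains themselves, 0 were among the gene symbols counted, so those genes were not analysed here.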

How the data were processed

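mTEC RNA (polyA RNA, SMARTer Ultra Low kit v3) was sequenced from 2 pools per sex. The authors trimmed reads with Trimmomatic, aligned them to mm9 with TopHat2 and made the deposited counts per gene with HTSeq; versions, gene annotation and strand setting are not given in the sources used here. The 5 rows that name no gene (66.9% to 70.2% of a pool) were left out.

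Counts were tested with edgeR 4.0.16 in R 4.3.3 (quasi-likelihood, TMM, filterByExpr with a minimum count of 10, prior count 0.125, sex as the only term, Benjamini-Hochberg adjustment over all genes tested, threshold 0.05, two-sided), and DESeq2 1.42.0 was an alternative. The script was checked on simulated data. Tables were made with Python 3.11.15 and pandas 2.3.3. Normalized CPM divides counts by gene reads times the TMM factor. RPKM uses exon lengths of NCBIM37, the build of mm9, where 21048 symbols (90.1%) matched. A count of 0 allows up to 3 counts. No pair of pools agreed within sampling noise (lowest chi-square per degree of freedom 10.1). The labels of every pool carry the tag 3rdPrep, which they do not explain. Nothing more is said of how the pools were made, so p-values measure the spread between pools.

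All 32 genes are named, with the 3 most abundant of each other list and some genes chosen after their values were seen. Some genes of the other lists are not reported here and were left out of their sums and counts. The members and lists were chosen with earlier results of these data known. The alternatives were other scalings, no filter, the pool number as a block, other tests and leaving out each pool.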

Additional observations from a re-analysis of the deposited data

How the results depend on the processing

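The number of all genes called between the sexes, 0 in the reported fit, was 26 with no filter, 5 with library size only, 17 with the pool number as a replicate block, 3 with DESeq2, 8 with edgeR's exact test, and 0 to 646 on leaving out 1 pool. The number of thymocyte genes called was 9 with no filter, 3 of 26 with the block (Cd3d, Itm2a and Dntt, all higher in males, against 0.138% of all genes) and 0 to 21 on leaving out 1 pool; it stayed at 0 under the other scalings and tests. Their median log2 fold change ran from -0.33 (without male pool 1) to 2.44 on leaving out 1 pool. The pools share only a number: differences of pool 2 from pool 1 in females and males correlated at 0.527 over 10865 genes, with 2 pairs. Under the block Tcf7 was at -0.019.

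On leaving out each pool in turn, the log2 fold change had these ranges, the lowest of each being the fit without male pool 1. Of the receptor complex, Cd3e ran from -0.86 to 2.76, Cd3g from -0.35 to 2.45 and Cd247 from -0.27 to 2.44. Of the signalling genes, Lck ran from -0.95 to 1.54, Zap70 from -0.10 to 2.58, Lat from -0.36 to 2.40 and Skap1 from -0.76 to 2.74. Of the surface receptors, Cd2 ran from -0.71 to 0.41, Cd5 from -0.92 to 0.63, Cd6 from -0.28 to 1.95, Cd27 from -0.77 to 2.45 and Cd28 from -0.69 to 2.51. Of the factors and Dntt, Tcf7 ran from -1.11 to 0.96, Lef1 from -0.19 to 2.57, Bcl11b from -0.52 to 2.24, Gata3 from -0.31 to 1.81, Satb1 from -0.73 to 1.55 and Dntt from -0.63 to 3.37. The other 8 tested genes were above 0 in these 4 fits, Cd3d from 1.33 to 2.87. The cause was not tested.

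The ratio of immature to mature stage genes without Dntt was 0.0863 and 0.155 in female pools 1 and 2 and 0.0685 and 0.349 in male pools 1 and 2; from summed RPKM, it was 0.755, 0.653, 0.707 and 1.50. Both were chosen after seeing the data. With library size only, 30 of the 32 genes were highest in male pool 1 and 43.8% of all genes were. Under every scaling tried, 26 of the 32 were lower in pool 2 of both sexes. The share of all genes that were so was 31.9% with TMM, 31.2% with upper-quartile scaling and 43.1% with library size only. Depth limits Rag1, Rag2, Themis, Trat1, Txk and Prkcq, with 1 to 6 counts or 0 in the pools other than male pool 1.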
